A study of Mus musculus with 2 samples.

Results

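The genes of the replication-independent histone variants were examined for R-loop peaks in neural stem/progenitor cells (NSPCs). Members were taken by gene symbol from the GENCODE M1 annotation of the mouse mm9 genome: H3f3a, H3f3b, H2afx, H2afz, H2afv, H2afy, H2afy2 and H1f0, which are 8 of 37273 annotated genes. Of these, 7 are annotated as protein-coding, among 22367 such genes. Each peak that overlapped a member or lay within 2 kb of it was assigned to that gene, which gave 11 of 22132 peaks.

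The study asked where R-loops form in neural progenitors under mild replication stress. Primary NSPCs were cultured from the frontal brain of C57BL/6 mice at postnatal day 7 and, as the methods state, exposed to 0.5 µM aphidicolin, an inhibitor of DNA polymerases, for 48 h. Digested genomic DNA was precipitated with S9.6, an antibody against RNA:DNA hybrids, and sequenced (DRIP-seq), and the authors deposited 1 list of peaks called with a Hidden Markov Model. An input library was not analysed here, and no untreated NSPCs form a group here, so the peaks describe treated cells only.

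In an R-loop, nascent RNA pairs with its DNA template and leaves the opposite DNA strand unpaired, often at GC-rich gene starts and near gene ends. Canonical histones are made in S phase from clustered genes without introns, whereas variant histones are made throughout the cell cycle from scattered genes, most of which have introns and polyadenylated transcripts. The variants then enter chromatin through dedicated chaperones and remodellers: H3.3 at active genes and heterochromatin, H2A.Z at promoters, H2A.X genome-wide as the substrate of DNA damage kinases, macroH2A largely in repressed chromatin, and the linker histone encoded by H1f0 in cells that leave the cycle.

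The list gives positions only, with no score or read count, so a peak is present or absent, its height and the depth behind it are unknown, and no replicate error can be given. A peak in a few cells also cannot be told apart from one in most cells. As a check of the cell label, peaks overlapped 6 of 9 marker genes of neural stem and progenitor cells (Nes, Sox2, Sox9, Vim, Notch1 and Slc1a3), against 1 of 6 for neurons (Gad1), 2 of 5 for oligodendrocytes, 1 of 6 for microglia and 1 of 5 for endothelium. Over all protein-coding genes the share was 39.6%, and over those with a CpG-rich start 61.6%, so counts this small say little about the label. A peak is also not a level of expression, and these counts were not tested.

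The sequences that follow show the pieces of DNA on which the descriptions turn, all from the mm9 assembly and written 5′ to 3′ on the strand of the gene. The first pair is the start of the H3.3 coding sequence in the 2 genes that encode it, in exon 2 of H3f3a (chr1:182741998-182742057, minus strand) and exon 4 of H3f3b (chr11:115885264-115885323, minus strand), with capitals at the 13 of 60 bases that differ. All 60 bases of H3f3b lay inside a peak and 0 of those of H3f3a did.
H3f3a coding start: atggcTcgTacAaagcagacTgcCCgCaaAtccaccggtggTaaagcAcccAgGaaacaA
H3f3b coding start: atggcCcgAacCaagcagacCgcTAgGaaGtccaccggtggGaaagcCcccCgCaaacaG

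The next set holds the 250 bases upstream of 3 gene starts: H2afz (chr3:137527201-137527450, plus strand) and H2afx (chr9:44142548-44142797, plus strand), which lay wholly inside a peak, and H2afv (chr11:6344447-6344696, minus strand), which had none. Capitals mark matches on either strand to any of 4 searched motifs. These were TATAAA, which is the core of the promoter element of that name, then the element CCAAT, the binding sequence of Sp1 family factors in the form GGGCGG, and the cAMP response element in the form TGACGTCA.
H2afz upstream: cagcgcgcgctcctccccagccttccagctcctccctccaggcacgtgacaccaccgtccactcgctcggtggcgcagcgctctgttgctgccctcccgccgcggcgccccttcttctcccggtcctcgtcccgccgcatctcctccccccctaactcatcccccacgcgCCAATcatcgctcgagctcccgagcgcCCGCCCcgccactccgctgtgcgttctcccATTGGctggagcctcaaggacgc
H2afv upstream: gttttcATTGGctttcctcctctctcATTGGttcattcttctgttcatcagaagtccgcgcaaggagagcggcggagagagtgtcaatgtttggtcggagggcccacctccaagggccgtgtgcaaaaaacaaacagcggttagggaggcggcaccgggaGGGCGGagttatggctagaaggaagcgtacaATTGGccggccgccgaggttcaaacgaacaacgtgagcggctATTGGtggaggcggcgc
H2afx upstream: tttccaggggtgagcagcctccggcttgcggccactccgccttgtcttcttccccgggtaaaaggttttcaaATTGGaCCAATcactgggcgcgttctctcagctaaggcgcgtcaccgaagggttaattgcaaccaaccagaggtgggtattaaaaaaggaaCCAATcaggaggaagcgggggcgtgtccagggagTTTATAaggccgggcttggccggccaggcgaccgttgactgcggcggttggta

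The last set shows, for 2 peaks, the window of 60 bases on the strand of the member in which G most outnumbers C. Windows that touch an annotated untranslated region were left out, and capitals mark runs of at least 3 G. The 2 windows lie in an intron of H3f3a (chr1:182735372-182735431, minus strand) and an intron of H2afy2 (chr10:61223754-61223813, minus strand).
H3f3a peak: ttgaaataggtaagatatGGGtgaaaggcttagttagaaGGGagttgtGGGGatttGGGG
H2afy2 peak: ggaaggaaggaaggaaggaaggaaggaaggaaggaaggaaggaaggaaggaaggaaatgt

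Peaks overlapped 7 of the 8 histone variant genes, H2afv being the exception. Among all protein-coding genes, 39.6% had an overlapping peak. The same 7 genes had a peak within 2 kb, compared to 43.1% of protein-coding genes. With 8 members and 1 list, these shares are descriptions. The start of the gene record lay in a peak for H2afx, H2afz and H1f0, which is 3 of 8, beside 14.9% of all protein-coding genes. The end of the record lay in a peak for H2afx and H1f0, 2 of 8 beside 10.9%. Both ends were inside a peak for the same 2 genes, beside 4.28%. The H1f0 record covers only part of its reading frame, so its ends are not mapped gene ends. Several peaks overlapped the gene for 1 member, H2afy, beside 18% of protein-coding genes with at least 2. Of the members, 6 have a CpG-rich start of the record, and H3f3b and H2afy have one at another annotated transcript. Protein-coding genes with a CpG-rich start carried an overlapping peak in 61.6% of cases and a peak at the start in 26.7%. Both shares are higher than in all protein-coding genes.

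**Figure D1:**
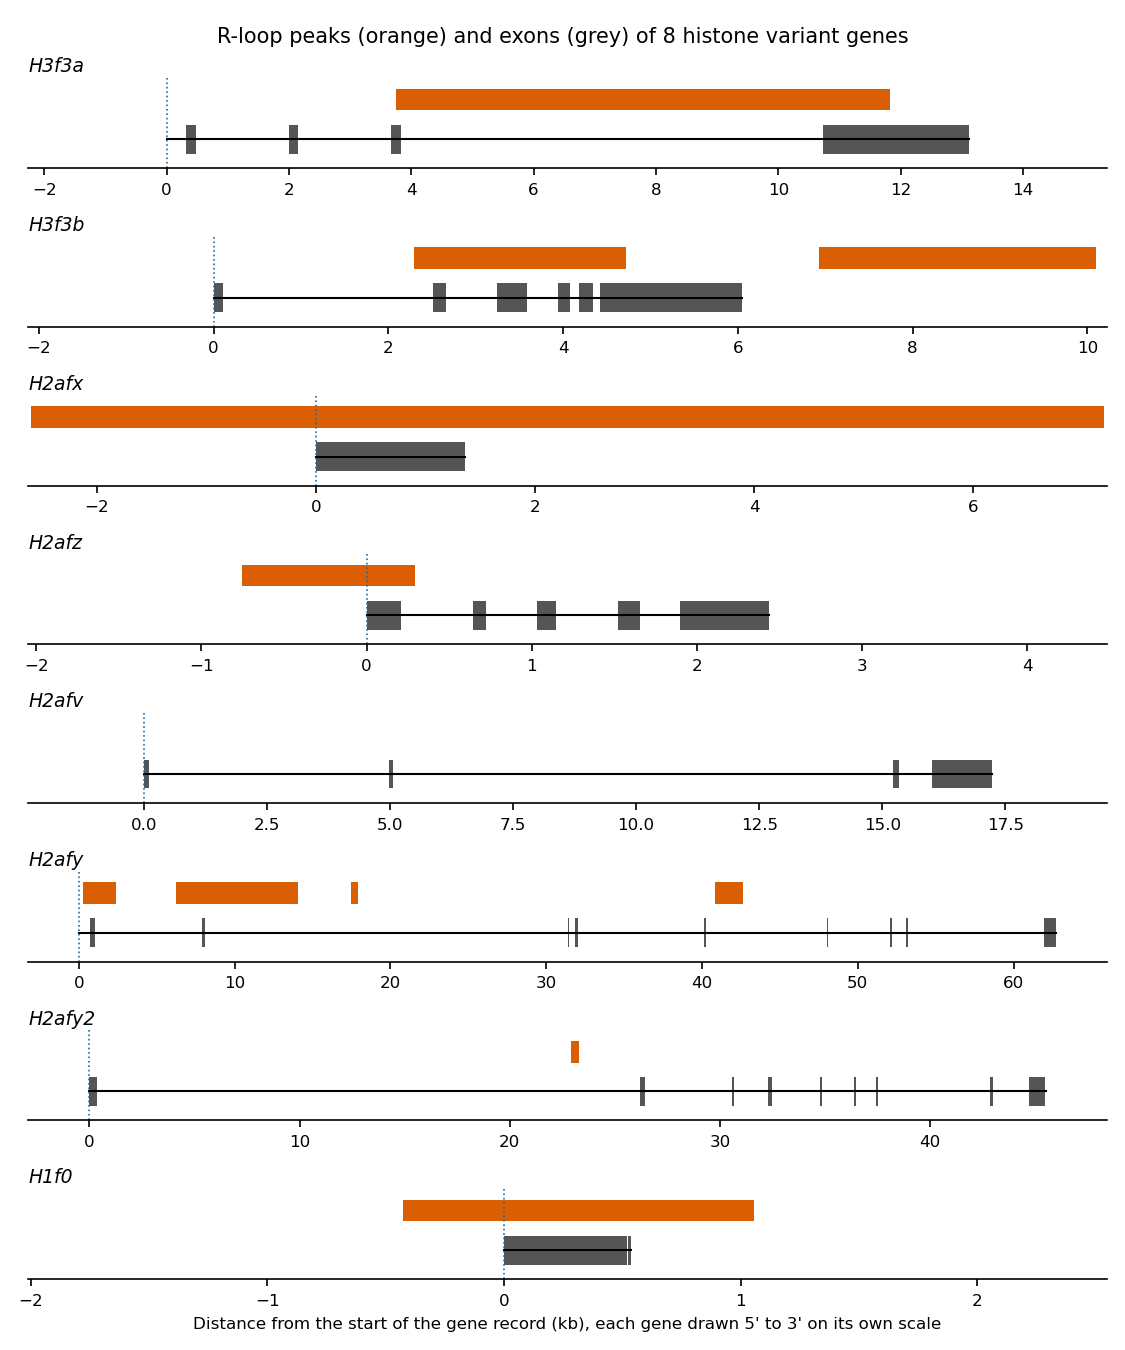
Each row shows 1 gene from its start (dotted line, 0 kb) to its end, with exons of its longest coding transcript in grey (for H1f0, of its single record) and R-loop peaks in orange; the x axis is the distance from the start of the gene record in kb, on a separate scale for each gene. Peaks cover H2afx and the H1f0 record from end to end, lie inside the bodies of H3f3a and H3f3b, sit at the start of H2afz and are missing from H2afv.

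Peak width differed widely among the members. The 11 peaks had a median width of 2.12 kb and ranged from 0.371 kb in H2afy2 to 9.79 kb at H2afx, and 9 of them were at least 1 kb wide. The median over all peaks was 1.32 kb. GC share of the 11 peaks ranged from 38.8% in H2afy2 to 63.2% at H2afz, around a median of 48.7% for all peaks. The narrowest peak was thus also the one lowest in GC, while the widest, at H2afx, had a GC share of 50.1%.

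**Figure D2:**
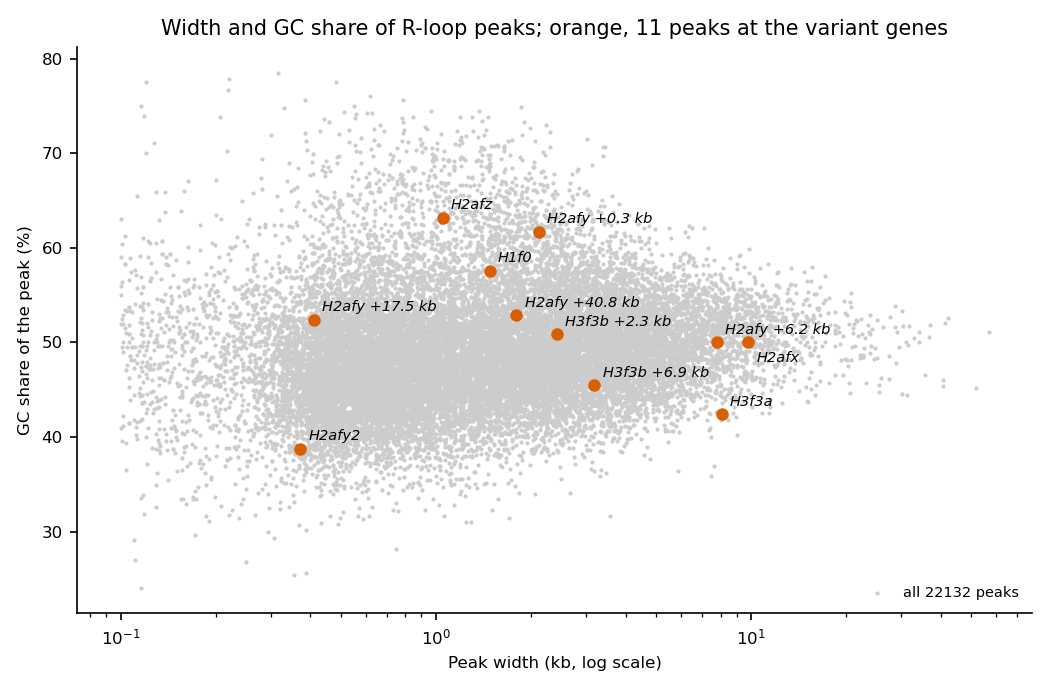
Width of each peak in kb (x, log scale) against its GC share in percent (y), for all 22132 peaks in grey and the 11 peaks at histone variant genes in orange; where a gene has several peaks, the label gives the distance of the peak's nearest end from the gene start. The orange points spread over the grey cloud, from H2afy2 at 0.371 kb and 38.8% to H2afx at 9.79 kb and H2afz at 63.2%.

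H3f3a and H3f3b encode the same H3.3 protein: the 136 residues were identical, while 313 of the 408 coding bases (76.7%) matched. Their peaks lay in different places. In H3f3b every coding base was inside a peak, and in H3f3a 196 of 408 were. Neither gene record started or ended inside a peak.

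H3f3a (ENSMUSG00000060743, chr1:182730963-182744074, minus strand, 13.1 kb) carried 1 peak of 8.07 kb, wider than 96.5% of all peaks. It covered 61.5% of the gene, a share higher than in 95.2% of protein-coding genes, and ran from 3.76 to 11.8 kb downstream of the gene start. Of genes with 0.5 to 2 times the length of H3f3a, 41.6% had an overlapping peak. The peak covered 45.5% of exon 3 and 45.7% of exon 4, the last exon, and most of it, 6542 bp, was intron. It also enclosed the whole of Gm17275, a long intergenic noncoding RNA gene annotated on the opposite strand, so the list, which has no strand, does not say from which of the 2 genes an RNA in the hybrid came.

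The start of H3f3a was among the most GC-rich, with 72% GC within 500 bp to each side, higher than in 97.3% of protein-coding genes, but 0 of its 7 annotated transcripts started in a peak. The peak itself had a GC share of 42.4%, and only 10.7% of all peaks were lower. The coding strand held more G than C there, with a GC skew, the difference of G and C counts over their sum, of 0.11, and 20 runs of at least 4 G against 7 on the other strand. In the gene outside the peak the skew was lower, at 0.04. The runs were sparser in the peak, at 2.48 per kb of the coding strand, than outside it, at 7.14 per kb. The H3f3a window printed above, with 25 G and 1 C, comes from this GC-poor peak.

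H3f3b (ENSMUSG00000016559, chr11:115883226-115889276, minus strand, 6.05 kb) overlapped 1 peak of 2.42 kb, from 2.30 to 4.71 kb downstream of the start of the record. The peak held exons 2 to 5 of H3f3b-001 completely and 17.7% of exon 6, the last, and covered 40% of the gene. Of genes with 0.5 to 2 times this length, 33.6% had a peak. Although the first base of the record was 2296 bp away, 3 of the 4 annotated transcripts started in the peak, among them the coding transcript H3f3b-201. Around the start of H3f3b-201 the GC share was 56.6%, and around the start of the record 40.3%, so for this gene the GC-rich start was the one inside a peak. A second peak of 3.18 kb began 877 bp past the end of H3f3b and overlapped no annotated gene. It was the only 1 of the 11 peaks that did not overlap its gene, and the next peak from any member lay between 7.38 kb (H3f3a) and 157 kb (H2afy) away.

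H2afx (ENSMUSG00000049932, chr9:44142798-44144154, plus strand, 1.36 kb) encodes H2A.X, whose C-terminal tail is phosphorylated around DNA double-strand breaks. It is a gene of a single exon, and all of it, including the 429 coding bases, was inside 1 peak. This peak was 9.79 kb wide, wider than 98% of all peaks, and reached from −2.6 to 7.19 kb relative to the gene start. Only 13.9% of it was H2afx. Upstream, it covered 1.49 kb, or 22%, of Dpagt1, which encodes an enzyme of protein N-glycosylation, with the 3′ end of that gene and not its start. Of genes with 0.5 to 2 times the length of H2afx, 10.6% had an overlapping peak, but since most of the peak lay outside H2afx its presence cannot be ascribed to this gene. On the strand of H2afx, C exceeded G in the gene (skew −0.08), with 4 runs of at least 4 G against 10 on the other strand.

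H2afz and H2afv encode the 2 forms of H2A.Z, which differ at 3 residues of their alignment and share 125. Their genes differed in the peak list. H2afz had a peak at its start, and H2afv had none within 10.3 kb.

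H2afz (ENSMUSG00000037894, chr3:137527451-137529886, plus strand, 2.44 kb) overlapped 1 peak of 1.05 kb, from −757 to 292 bp relative to its start. The peak held the whole of exon 1 and 0% of exons 2 to 5, or 3 coding bases, and covered 12% of the gene. Of the 7 annotated transcripts, 5 started inside it. Its GC share of 63.2% was higher than in 97.3% of all peaks. In the part inside the gene, GC share was 69.6% and the skew on the coding strand was 0.21. Of genes with 0.5 to 2 times this length, 25% had an overlapping peak and 16.7% had a start in a peak.

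H2afv (ENSMUSG00000041126, chr11:6327229-6344446, minus strand, 17.2 kb), named H2az2 in a later RefSeq table, had its nearest peak 10301 bp beyond its 3′ end. Of genes with 0.5 to 2 times its length, 43.9% had an overlapping peak, so by length alone a gene without one was the more common case. Of protein-coding genes with a CpG-rich start, as H2afv has, 61.6% had one, so there it was the less common case. Within 500 bp of the gene start, GC share was 59.7% and the ratio of observed to expected CpG was 1, compared to 71.8% and 0.956 for H2afz. Skew over the first 1 kb was 0.13 in H2afv and 0.21 in H2afz, and 84.5% and 96% of protein-coding genes had a lower value. The start of H2afv was therefore CpG-rich with G in excess on the coding strand, and it had no peak. Upstream, both genes matched CCAAT, with 4 matches in H2afv and 2 in H2afz, and each held 1 GGGCGG.

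Over all members, CCAAT was found upstream of H2afx, H2afz and H2afv, which is 3 of 8, beside 35% of the 22367 protein-coding genes. GGGCGG was found upstream of H3f3a, H2afz and H2afv, 3 of 8 beside 39.6%, and TATAAA upstream of H2afx and H2afy, 2 of 8 beside 12.3%. TGACGTCA matched in 0 of 8, beside 1.91% of protein-coding genes. The search covered bases upstream of the start of each gene record. For H1f0 that start is the ATG and not a mapped transcription start. For H3f3b and H2afy the CpG-rich start belongs to another annotated transcript, and the bases just upstream of it were not searched. For H1f0, H3f3b and H2afy, the counts therefore do not describe a CpG-rich promoter. Both H2afv without a peak and H2afz with one held the same 2 motifs, and these motifs do not overlap one another. A match is a run of letters and not a bound site.

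H2afy and H2afy2 encode macroH2A1 and macroH2A2, H2A variants with a large C-terminal macrodomain, and their proteins shared 66.9% of aligned residues. Both genes are long, and they stood apart in the bases covered. Peaks covered 12.1 kb of H2afy (19.4%) and 0.371 kb of H2afy2 (0.815%). Of genes with 0.5 to 2 times their lengths, 55% and 51.5% had an overlapping peak.

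H2afy (ENSMUSG00000015937, chr13:56174980-56237722, minus strand, 62.7 kb) carried 4 peaks. The first, of 2.12 kb, began 253 bp downstream of the start of the record and held the start of the coding transcripts H2afy-001 and H2afy-002 with the whole of their exon 1. In all, 5 of the 8 annotated transcripts started in a peak. The GC share was 67.3% around the start of H2afy-001 and 47.2% around the start of the record, the same arrangement as in H3f3b. This peak had a GC share of 61.7%, higher than in 96.4% of all peaks, with a skew of 0.11 and 24 runs of at least 4 G on the coding strand against 10 on the other.

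The second peak of H2afy, 6.23 to 14 kb from the start of the record, was 7.80 kb wide, wider than 96.2% of all peaks, and held exon 2, the first with coding bases (172 of them). The other two lay in introns, at 17.5 kb (0.410 kb wide) and at 40.8 kb (1.80 kb wide). Exons 3 to 9 had 0% of their bases in peaks. Outside the first peak, skew was close to balance, at 0.02, −0.0047 and −0.03 in the order from the start. Of the bases of H2afy in peaks, those near the 5′ end thus made up the larger share, and the end of the gene was 20133 bp from a peak.

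H2afy2 (ENSMUSG00000020086, chr10:61201391-61246895, minus strand, 45.5 kb) had 1 peak of 0.371 kb in its first intron, 22.9 kb from the start. Of all peaks, 7.36% were narrower. The start of H2afy2 had a GC share of 58.5%, and 0 of 3 transcripts started in a peak. The peak had a GC share of 38.8%, and 2.7% of all peaks were lower. Its skew was the largest among the 11, at 0.35, and 71.2% of its coding-strand bases were purines. The skew came with a tract of 14 tandem GGAA units, 56 bp long, which is the stretch printed above with 29 G and 0 C. Among all peaks, 504 (2.28%) held at least 10 tandem units on either strand, and among the 3754 peaks under 0.5 kb, 2.34% did. No other peak at a member had more than 2 tandem units.

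**Figure D3:**
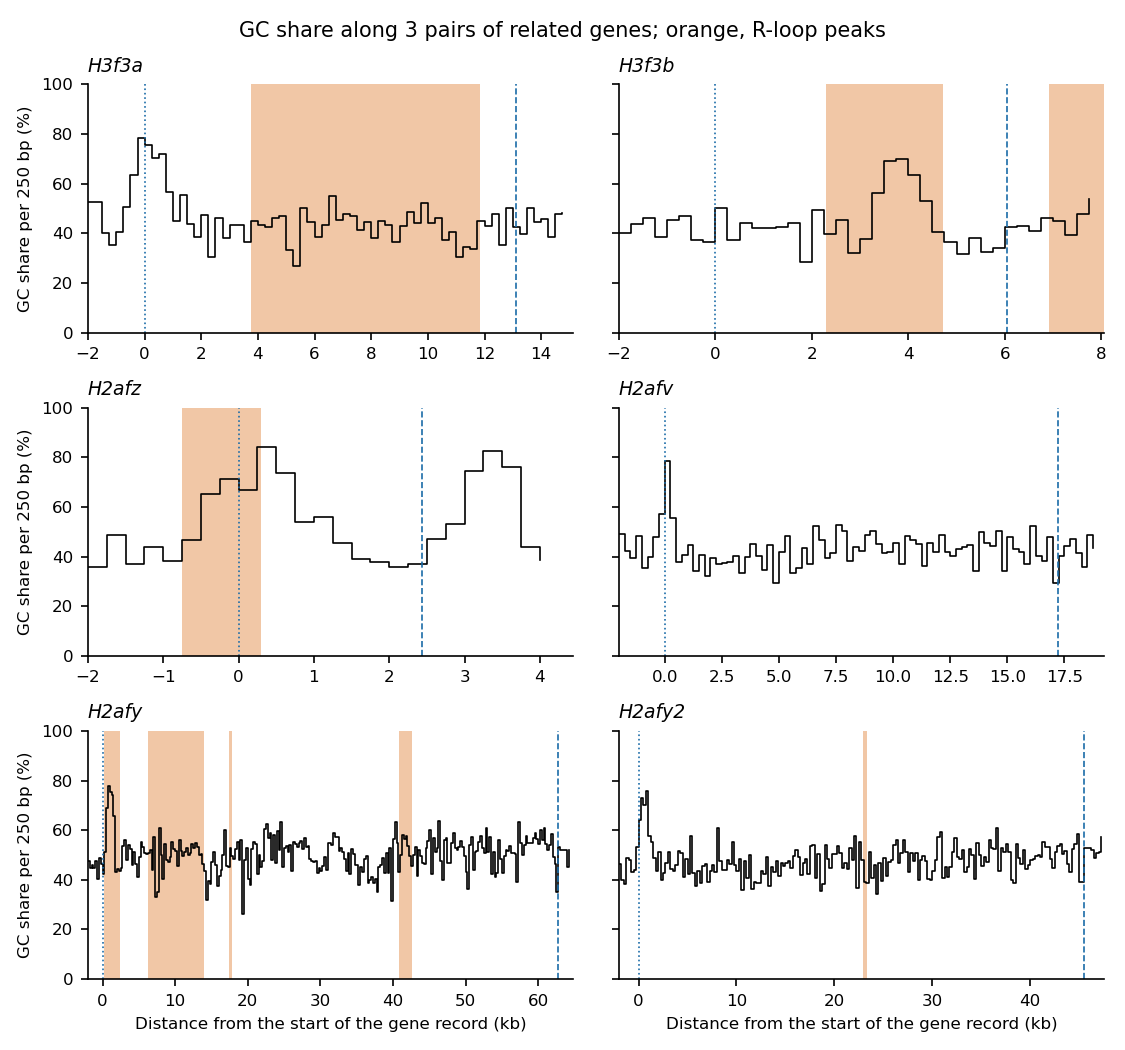
GC share in windows of 250 bp (y, percent) along the 3 pairs of related genes, against the distance from the start of the gene record in kb (x); dotted and dashed blue lines mark the start and end of the record, and orange bands mark R-loop peaks. The highest GC window lies inside a peak in H3f3b (70%) and H2afy (78%), at the edge of a peak in H2afz (84%), and outside peaks in H3f3a (78.4%), H2afv (78.4%) and H2afy2 (75.6%).

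H1f0 (ENSMUSG00000048769, chr15:78859152-78859689, plus strand) encodes the linker histone H1.0, and its record in this annotation is a pseudogene of 0.538 kb. The record begins at the ATG of an uninterrupted reading frame of 194 codons that ends with its stop codon at 78859736, and a later RefSeq table lists the gene as protein-coding. The start of the record is therefore a start of coding sequence and not a mapped transcription start. The record ends at 78859689, before that stop codon, so its end is not a mapped gene end. A peak of 1.48 kb covered the whole record and the whole reading frame, from −425 to 1054 bp relative to the ATG. Of protein-coding genes with 0.5 to 2 times the length of the record, 3.02% had an overlapping peak. The peak had a GC share of 57.6%, higher than in 91.9% of all peaks, and its skew was 0.02. The highest GC window near H1f0, 75.6%, lay 0.75 kb upstream of the ATG and outside the peak.

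Seen across the members, GC-rich starts fell on both sides. Each gene had an annotated start with a GC share of 56.6% to 72% within 500 bp to each side. These starts lay in a peak in H2afx, H2afz, H3f3b (H3f3b-201) and H2afy (H2afy-001), and outside peaks in H3f3a, H2afv and H2afy2. That of H1f0 also lay in a peak, but it is the ATG of the record and not a mapped transcription start. Coding sequence was wholly in a peak for H3f3b, H2afx and H1f0, in part for H3f3a, H2afy and H2afz, and not at all for H2afv and H2afy2.

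DNA was cut with EcoRI, HindIII, BsrGI, SspI and XbaI before precipitation, so peak edges were compared with the cut sites. Of the 22 edges of the 11 peaks, 1 (4.55%) lay within 100 bp of a site of these 5 enzymes, beside 28.7% of the 44264 edges of all peaks. It was the 5′ edge of the peak in H3f3b, 7 bp from an SspI site. The fragments that held the gene starts were between 0.925 kb (H3f3b) and 2.85 kb (H2afx) long, and that of H2afv was 1.53 kb. H2afv held 26 sites in the gene, while H2afx and H1f0 held 0.

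Histone genes have processed copies and close relatives, and reads from repeated sequence may not be placed uniquely. The share of 50-base words that occur more than once in the mm9 assembly was therefore computed for each gene. The methods name reads with a unique mapping position for the signal tracks and densities, and the read length is not given in the sources used here. The share was 28% in H2afz, 14% in H3f3b, 7.36% in H3f3a, 6.27% in H2afx, 4.36% in H2afv, 2.59% in H2afy2, 2.01% in H2afy and 0% in H1f0. In the exons of H2afv, 0% of the words recurred. The part of repeated sequence in the presence or absence of peaks at these genes was not tested.

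Repeats were concentrated in exons of H2afz, H3f3a and H3f3b. In H2afz, 79.6% of exon words recurred, and the values were 28.6% in exon 1, 100% in exons 2, 3 and 4, and 89.1% in exon 5. The exon of H2afz inside the peak was the one with the lowest share of repeated words, and within the peak as a whole the share was 4.7%. In the gene outside the peak it was 29%. The share was also lower inside peaks than in the gene outside them for H3f3b (8.33% against 16.6%). It was higher inside peaks for H3f3a (9.34% against 4.2%), H2afy (2.68% against 1.85%) and H2afy2 (15.2% against 2.5%). In H3f3a, words of exon 2, which holds the printed coding start, recurred in 100% of cases and had 0% of their bases in a peak, whereas in H3f3b exon 4, which holds the same coding start, 14.6% recurred and 100% of bases were in a peak. In exon 5 of H3f3b, 71.4% of words recurred and the exon was still wholly in a peak. In exon 3 of H3f3a, 84.8% of words recurred and 45.5% of bases were in a peak.

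**Figure D4:**
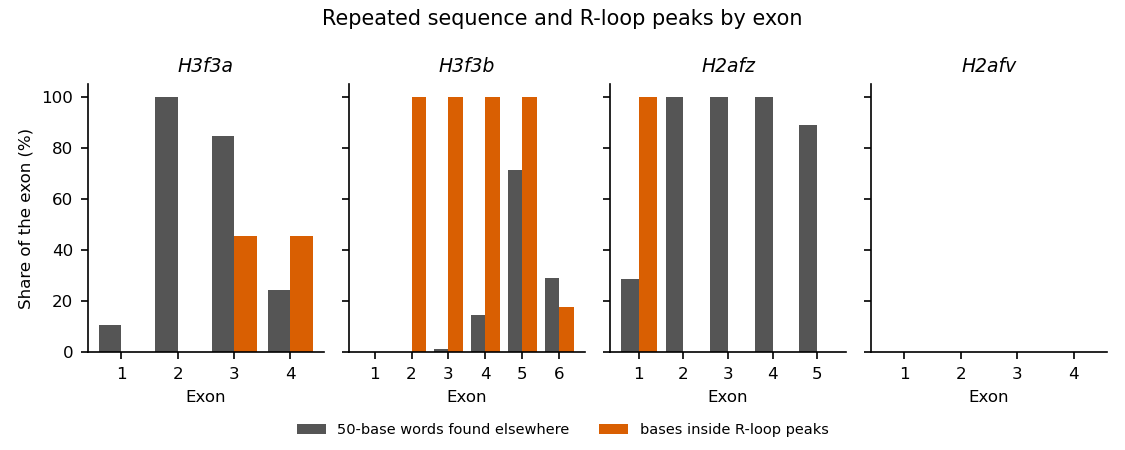
For each exon of the longest coding transcript of H3f3a, H3f3b, H2afz and H2afv (x, numbered from the 5′ end), the grey bar gives the percent of its 50-base words that occur more than once in the genome and the orange bar the percent of its bases inside R-loop peaks. In H2afz, exons 2 to 5 have 89.1% to 100% repeated words and no bases in peaks, and in H2afv both values are 0 for every exon. Exon 5 of H3f3b has 71.4% repeated words and lies wholly in a peak.

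The other copies of these exon words were also compared with the peaks. Places with at least 50 such words numbered 26 for H3f3a, 2 for H3f3b, 4 for H2afz and 15 for H2afx, and 0 of them overlapped a peak. Reads from shared words may not be placed uniquely, and no share over comparable places is given. The counts therefore say little about the copies. The largest H2afz copy, on chromosome 6 in Tmcc1, is annotated as the pseudogene Gm8203. Among the copies of H2afx were stretches of canonical H2A genes of the histone clusters, such as Hist1h2ac and Hist2h2aa1, and of pseudogenes, such as Gm11336. For H2afy2 there was 1 such place, H2afy3, a pseudogene within the noncoding gene Pvt1 on chromosome 15, and it overlapped a peak. Words in the peaks of H2afy recurred in 0% for 3 of them and 4.13% for the widest, and words in the H2afy2 peak, with its GGAA tract, in 15.2%.

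Other genes of the same pathway were counted for comparison. Among 33 genes for deposition or removal of variant histones, 27 (81.8%) had an overlapping peak, 19 (57.6%) a start in a peak and 8 (24.2%) an end in a peak. Over all protein-coding genes these shares were 39.6%, 14.9% and 10.9%. For those with a CpG-rich start they were 61.6%, 26.7% and 16.3%. The most bases in peaks were found in Chd2, a chromatin remodeller (10 peaks, 22.7 kb), Cabin1, a partner of the H3.3 chaperone HIRA (6 peaks, 22 kb), Ep400, which loads H2A.Z (3 peaks, 8.81 kb), and Kat5, the acetyltransferase of the same complex, which lay wholly in 1 peak (7.03 kb). Chosen after their values were seen, Hira had 4 peaks, Srcap 3, Daxx 2, and Atrx and Anp32e 1 each. Also named after their values were seen, Asf1b, Chaf1b, Mdc1, Nasp, Ruvbl1 and Supt16h had no overlapping peak. Of these, Asf1b and Supt16h had a peak within 2 kb. Most genes of this list are longer than the members, with a median of 24.4 kb against 9.58 kb.

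Of 11 other variant histone genes in the annotation, 4 (36.4%) overlapped a peak, and all 4 had their start in it. The share with an overlapping peak was 39.6% for all protein-coding genes and 27.1% for all annotated genes. Some of the 11 are pseudogene records, H2afy3 among them. Hist3h2ba is counted here and also among the clustered genes below. Cenpa, which encodes the centromeric H3 variant, had 2.70 kb in a peak, and H2afy3, H2afj and H1fx, with 1.86, 1.83 and 1.06 kb, were wholly covered. Among the 67 clustered replication-dependent histone genes, 4 (5.97%) overlapped a peak and 9 (13.4%) had one within 2 kb. Those 4, chosen after their values were seen, were Hist1h1c, Hist1h1d, Hist1h1e and Hist1h2bc. The clustered genes are short, with a median of 0.53 kb, and of protein-coding genes about as long as the H1f0 record 3.02% had a peak. They are also repetitive: a median of 49.5% of 50-base words recurred in the 63 genes without a peak and 6.73% in the 4 with one. The part of length and of repeats in the low count was not tested.

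**Figure D5:**
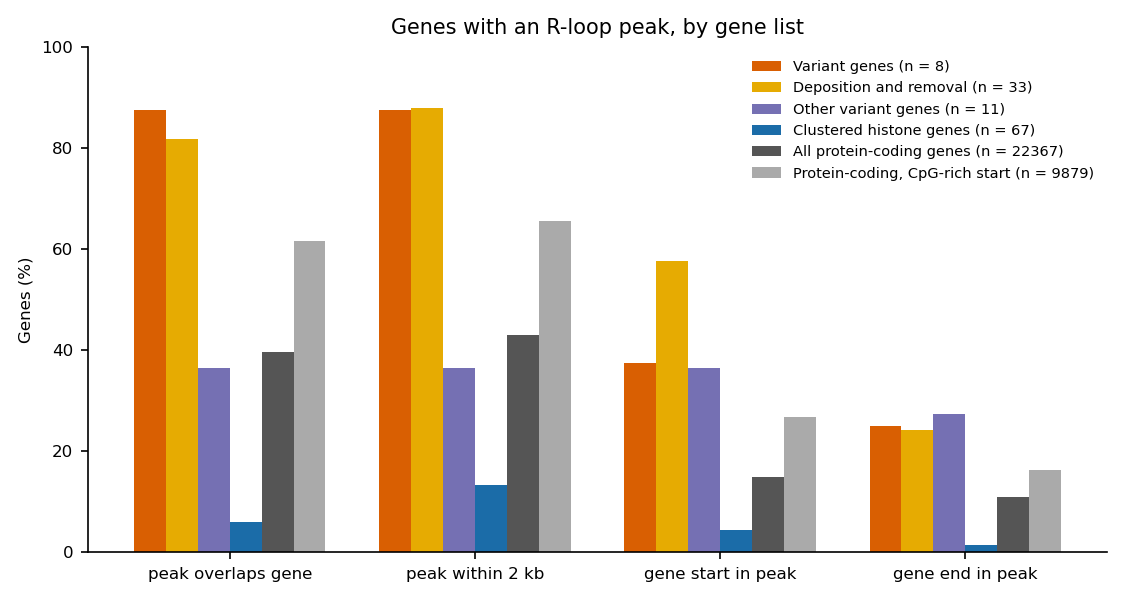
Percent of genes (y) with a peak that overlaps the gene, a peak within 2 kb, the gene start in a peak or the gene end in a peak (x), for the 8 histone variant genes, 3 related lists, all protein-coding genes and those with a CpG-rich start; n in the key is the number of genes. The variant genes (87.5% with an overlapping peak) and the deposition and removal genes (81.8%) stand above all protein-coding genes (39.6%). They stand less far above those with a CpG-rich start (61.6%). The clustered genes (5.97%) lie below both backgrounds.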

How the data were processed

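The authors trimmed the DRIP-seq reads with Trim Galore 0.6.6, mapped them to mm9, discarded duplicate reads and ran a peak caller based on a Hidden Markov Model. By the methods, 9 DRIP reactions of 3 biological replicates were made and the 3 reactions of a replicate were pooled for a library, and the step that joined the replicates into the deposited list is not given in the sources used here. The deposited list holds peak positions in base pairs (converted to 1-based), with no counts, so depth and precision are unknown and no test was made. Peaks were placed on mm9 and GENCODE M1, and 0 peaks ran past a chromosome end. An overlap was counted from 1 bp, and the start and end of a gene are the outermost ends of its record. CpG-rich starts had a GC share of at least 50% and an observed to expected CpG ratio of at least 0.6 within 500 bp. A later RefSeq table served for names only. Members and lists were chosen with earlier results of these data known. Named genes are the members, genes under their peaks and the 4 genes with most bases in peaks in the deposition and other variant lists, besides those named as chosen later; some results, 1 marker among them, are not reported here. H2afb2 and H2afb3 of the latter list were not found in the annotation. Alternatives were peak size, merging, overlap, peak midpoint, shortened peaks, transcript limits, a flank of 5 kb, other background genes and word length. Overlap and word counts were tested on simulated data. Calculations used Python 3.11.15 and numpy 2.4.6, and figures matplotlib 3.10.9.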

Additional observations from a re-analysis of the deposited data

How the results depend on the processing

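Counts over the members changed little with the settings tried. With peaks of at least 1 kb, 6 of the 8 genes overlapped a peak, since the peak of H2afy2 was dropped, and with the peak midpoint required inside the gene 5 did, since the midpoints at H2afx and H2afz fell outside. With transcript limits in place of the gene record, 4 gene starts lay in a peak, H2afy being the addition. The number of genes with an overlapping peak was 7 under the other settings, and the bases covered ranged from 23685 to 25185 bp. The share of protein-coding genes with an overlapping peak, 39.6%, became 61.6% for those with a CpG-rich start and 27.1% over all annotated genes. With 36-base words, shares of repeated words were 7.71% in H2afv, 3.1% in H2afy and 5.83% in H2afy2, over 1.5 times those with 50 bases. With 1 list, no replicate could be left out. No paired analysis was possible because the labels give no replicate numbers and no groups were compared. Whether peaks are strong or weak, and whether any follow the treatment, cannot be read from positions alone.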
